A study of Mus musculus with 103 samples.

Results

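Macrophages given KLA for 12 h were compared with untreated macrophages over 10383 genes, out of 24014 gene symbols and 33022 transcripts in the RNA table. KLA is Kdo2-lipid A, the membrane-anchored core of bacterial lipopolysaccharide, and was added at 100 ng/ml. The genes were those with an RPKM of at least 1 in at least 2 of the 6 RNA libraries and a transcript of at least 200 bases. RPKM counts reads per kilobase of transcript relative to the library total, so it can be compared between genes of different length. Each symbol was represented by its transcript of highest mean RPKM. The comparison used 2 of the 6 RNA libraries, and the series holds 103 samples in all, including other RNA samples, chromatin immunoprecipitations and their inputs. Both libraries held poly(A) RNA of thioglycollate-elicited macrophages from male C57Bl/6 mice of 6 to 8 weeks. Thioglycollate, an irritant broth (2.5 ml), draws monocyte-derived macrophages into the peritoneum, and the adherent cells of a lavage 3 to 4 days later were plated and kept overnight in 0.5% serum. The untreated library had the same starvation and no KLA, and is labelled as the control for 1 to 12 h. A second untreated library, labelled for 24 h, is used below as another control. There was 1 library a side and no replicate, so no p-value is given and differences are between 2 libraries. The number of mice behind a library was not stated in the labels.

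Kdo2-lipid A is bound by MD-2 and TLR4 with the help of CD14. TLR4 signals at the cell surface through MyD88 to NF-kB and MAP kinases, which switch on cytokine and chemokine genes, and from endosomes through TRIF to IRF3, which switches on interferon beta. Secreted interferon then acts back on the same cells through STAT2, IRF9 and their partners, and the interferon-stimulated genes follow. Feedback inhibitors made in the same response limit it, and activated macrophages turn their metabolism, lipid handling and surface receptors to the new state over hours.

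The promoters of 8 genes that the results turn on are shown because they carry short motifs bound by the 2 arms of this pathway. Each line gives the 150 bases before the transcription start on the gene's own strand, from RefSeq on build GRCm38.p6, outside the transcribed part of the gene. Capitals mark the letters GAAANNGAA, the core of the element bound by IRF9 and other IRF proteins, and GGANNTTCC, the core of the NF-kB element. Both were searched on both strands, so either can also appear as its reverse complement, and neighbouring matches can overlap. Isg15, Ifit1 and Gbp2 are interferon-stimulated genes, B2m encodes the light chain of MHC class I, Cxcl3 and Il6 encode secreted signals, Irg1 encodes the enzyme that makes itaconate, and Nfkbia encodes the NF-kB inhibitor.
Isg15: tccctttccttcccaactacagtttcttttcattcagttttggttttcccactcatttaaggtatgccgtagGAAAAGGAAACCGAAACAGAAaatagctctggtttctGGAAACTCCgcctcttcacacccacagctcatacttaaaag
Ifit1: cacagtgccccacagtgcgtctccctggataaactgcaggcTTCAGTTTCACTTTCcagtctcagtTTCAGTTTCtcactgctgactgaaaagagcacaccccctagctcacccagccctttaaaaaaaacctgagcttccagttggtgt
Gbp2: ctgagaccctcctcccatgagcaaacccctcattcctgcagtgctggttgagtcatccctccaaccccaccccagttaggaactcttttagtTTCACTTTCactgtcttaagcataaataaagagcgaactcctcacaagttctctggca
B2m: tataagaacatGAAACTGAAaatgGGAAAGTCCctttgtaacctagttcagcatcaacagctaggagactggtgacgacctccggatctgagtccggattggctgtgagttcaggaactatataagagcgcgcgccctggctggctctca
Cxcl3: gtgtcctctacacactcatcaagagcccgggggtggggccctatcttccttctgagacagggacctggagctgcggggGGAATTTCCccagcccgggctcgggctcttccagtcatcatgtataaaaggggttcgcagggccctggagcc
Irg1: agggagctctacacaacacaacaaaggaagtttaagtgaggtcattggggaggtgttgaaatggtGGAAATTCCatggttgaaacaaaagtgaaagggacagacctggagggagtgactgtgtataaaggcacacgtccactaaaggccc
Nfkbia: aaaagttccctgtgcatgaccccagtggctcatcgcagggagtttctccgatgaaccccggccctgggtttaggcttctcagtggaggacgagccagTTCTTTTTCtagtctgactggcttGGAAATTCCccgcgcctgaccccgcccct
Il6: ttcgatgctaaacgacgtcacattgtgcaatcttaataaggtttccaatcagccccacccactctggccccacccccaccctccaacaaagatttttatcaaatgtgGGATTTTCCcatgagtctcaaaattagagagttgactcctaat
They lie at chr4:156200819-156200968 on the minus strand (Isg15), chr19:34640739-34640888 on the plus strand (Ifit1), chr3:142620513-142620662 on the plus strand (Gbp2), chr2:122147537-122147686 on the plus strand (B2m), chr5:90785951-90786100 on the plus strand (Cxcl3), chr14:103046862-103047011 on the plus strand (Irg1), chr12:55492648-55492797 on the minus strand (Nfkbia) and chr5:30012964-30013113 on the plus strand (Il6). Isg15 and Ifit1 held 3 matches each of the interferon letters, and Isg15, B2m and Nfkbia held both kinds of letters. Over windows of 300 bases (250 before to 50 after the start), the interferon letters were found in 8.97% and the NF-kB letters in 5.67% of the 8362 tested genes with a window, against 8.56% and 4.26% of all 32851 windows in the table. A match is a description of the letters and not a binding site.

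Sequencing was shallow. The totals behind the RPKM values, recovered from the values themselves, were 2447142 reads in the KLA 12 h library and 2205187 in the untreated library, with 2107806 and 1883937 reads in genes. A transcript of 1 kb with 1 read has an RPKM of 0.409 and 0.453 in them, and 0 reads there allow up to 1.23 and 1.36 RPKM (3 reads). Ratios below are plain ratios of RPKM, followed in parentheses by a 95% exact conditional binomial interval on the reads. Intervals and floors cover counting error only, not differences between animals, cultures or library preparations. A bound against 0 reads takes the reads of the other library as exact, and the counting interval reaches lower. Both libraries carried the defining macrophage RNAs. Lyz2, which encodes lysozyme, had 5167 RPKM with KLA and 8848 RPKM untreated. Cd68, a lysosomal membrane glycoprotein of macrophages, had 1649 and 2043 RPKM, and Csf1r, the M-CSF receptor, 110.0 and 152 RPKM. Hmgcs1, an enzyme of cholesterol synthesis that most cells express, has 0 RPKM throughout the table, and an entry of 0 is therefore not proof that an RNA was absent.

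After 12 h of KLA, 886 genes were at least 2-fold higher and 1665 at least 2-fold lower than in the untreated library, on the scale of log2(RPKM + 1), which is 8.53% and 16.0% of the genes tested. The other 7832 genes lay between. The counting interval excluded a ratio of 1 for 844 of the higher and 1567 of the lower genes. On this scale 243 genes were at least 8-fold higher and 37 at least 8-fold lower, and 79 and 0 passed 32-fold. The added 1 shrinks the ratios of genes that are low in either library. By plain ratios the whole counting interval lay beyond 8-fold for 207 higher and 33 lower genes, and beyond 32-fold for 76 higher and 1 lower gene. The higher genes held 28.8% of the reads in genes with KLA and 4.82% in the untreated library. Lower genes held 7.77% and 22.5%. The median log2 ratio over all genes was -0.33, so the split depends on the scaling. With the 2 libraries rescaled to a median ratio of 1, 1205 genes were higher and 890 lower, and the share of higher genes among those counted was 57.5%, against 34.7% on the deposited scale. Among the members of gene lists named below, rescaling ended the lower calls of Irak1, Tlr13, Cxcl12, Bcl2l11, Mmp12, Dhcr7, Npc1, Scap, Pltp, Clec7a, Fcgr3 and Ctsd. It added a higher call for H2-Ab1, Ptges3, S100a8 and Il10 (2 reads). Values below are on the deposited scale. Counts and medians of the gene lists are to be read beside those of all genes: 8.53% higher, 16.0% lower and a median of -0.33.

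**Figure D1:**
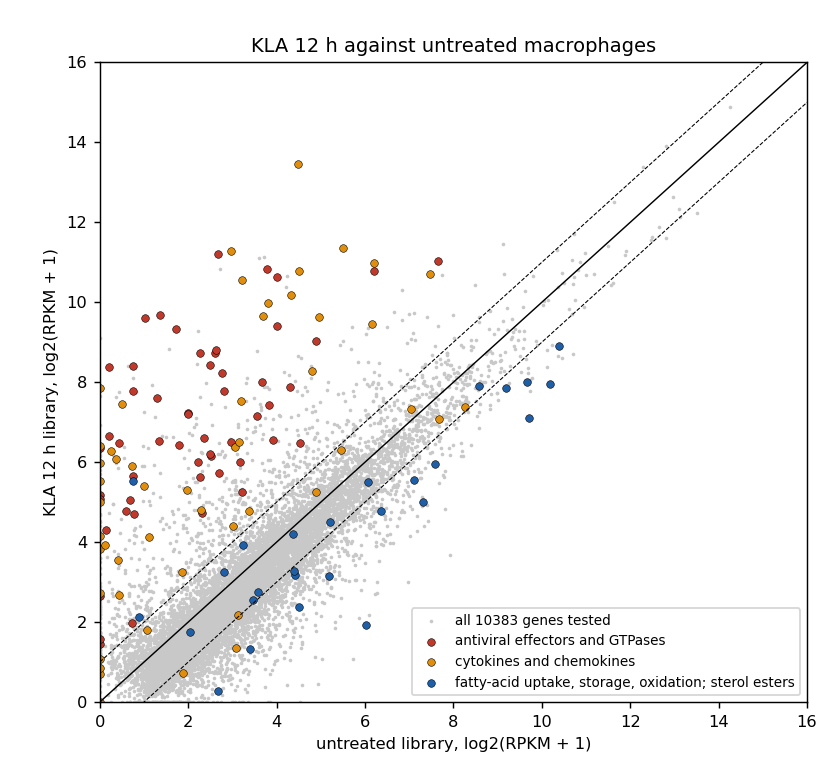
Level of each of 10383 genes with 12 h of KLA (vertical axis) and in the untreated library (horizontal axis), both as log2(RPKM + 1). The solid line marks equality and the dashed lines a 2-fold difference; antiviral effectors and GTPases (red) and cytokines and chemokines (orange) lie mostly above the upper dashed line, and genes of fatty-acid and sterol-ester handling (blue) mostly on or below the line of equality.

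Against the untreated 24 h library the median was -0.35, and between the 2 untreated libraries (1-12 h over 24 h) it was -0.02. Those 2 libraries differed at least 2-fold in 203 genes that were higher (1.96%) and 108 that were lower (1.04%) in the library for 1 to 12 h. Relative to both untreated libraries, KLA 12 h was at least 2-fold higher in 761 genes (7.33%) and lower in 1247 (12.0%). The 2 comparisons share the KLA library. Where a gene named below met the threshold against only one control, its level in the other untreated library is given.

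**Figure D2:**
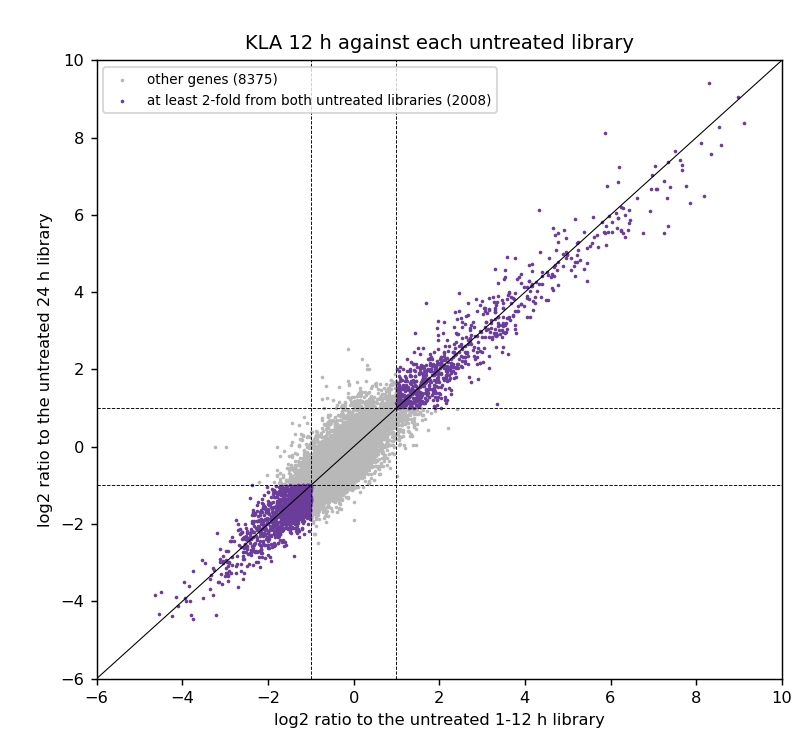
Log2 ratio of RPKM + 1 of the KLA 12 h library to the untreated library for 1 to 12 h (horizontal axis) and to that for 24 h (vertical axis), 1 point a gene. Purple points are the 2008 genes at least 2-fold from both, and grey points the other 8375; both axes share the KLA library.

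The 15 genes of highest ratio include secreted signals, interferon-induced proteins and pattern-recognition receptors. Cxcl3, a chemokine that attracts neutrophils, had 231 RPKM with KLA and 0 reads untreated, at least 173-fold higher against a floor of 3 reads (interval from 140.3). Tarm1, an activating receptor of myeloid cells, had 201 RPKM and 0 reads, at least 141-fold higher (interval from 115). Gbp5, a guanylate-binding protein, had 333 RPKM with KLA and 0.150 RPKM (1 read) untreated. These 3 were at or near the detection limit in this untreated library, so counting error limits their ratios. Cxcl3 had 1.90 RPKM (5 reads) in the other untreated library, a ratio of 122 (51.9 to 377). Gbp5 had 2.69 RPKM (21 reads) there, a ratio of 124 (80.9 to 201). Cmpk2, a mitochondrial nucleotide kinase induced by interferon, had 642 RPKM with KLA and 2.28 RPKM untreated, a ratio of 282 (173 to 494). Clec4e, the receptor Mincle for microbial glycolipids, had 2224 RPKM and 12.2 RPKM, a ratio of 182 (143 to 234). AW112010, a transcript with no gene name in the table, had 2209.5 RPKM and 11.1 RPKM, a ratio of 198 (127 to 330.0).

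The 15 genes of lowest ratio include receptors, enzymes and signalling proteins. Cxcr4, the receptor for the chemokine CXCL12, had 6.99 RPKM with KLA and 124 RPKM untreated, 17.8-fold lower (12.3 to 26.4). St6gal1, which adds sialic acid to glycoproteins, had 1.11 RPKM and 31.5 RPKM, 28.3-fold lower (15.6 to 57.4). Tmem154, a membrane protein, had 3.55 RPKM and 67.5 RPKM, 19.0-fold lower (13.1 to 28.7). For each of these the other untreated library was on the side of the untreated one, with 89.5, 30.9 and 70.6 RPKM. Arhgap19, a GTPase-activating protein, had 0 reads with KLA and 12.9 RPKM untreated, at least 53.3-fold lower (interval from 42.8). Ypel3, linked to growth arrest in human cells, had 5.58 RPKM and 76.2 RPKM, 13.7-fold lower (7.76 to 26.2). Of the 15 highest genes 14 had a promoter window in the table, 6 of these with the interferon letters and 6 with the NF-kB letters. Of the 14 windows of the 15 lowest genes 0 had either, but so few windows cannot show a lower share. Over the 1343 windows of all genes at least 2-fold lower the shares were 7.52% and 5.21%, near the 8.97% and 5.67% of all tested genes. The share over all genes at least 8-fold higher is void, because only 75.7% of them had a window.

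**Figure D3:**
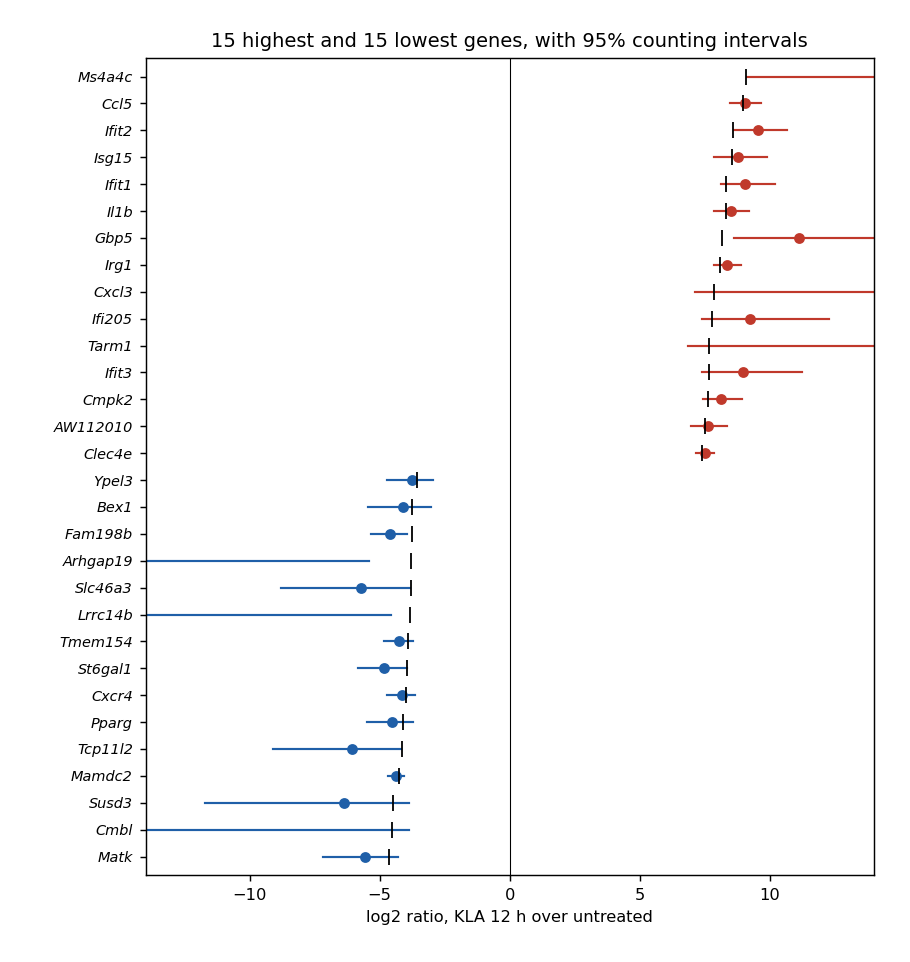
The 15 genes of highest (red, top) and the 15 of lowest (blue, bottom) log2 ratio between the KLA 12 h and the untreated library. Points are plain log2 ratios of RPKM, bars the 95% counting intervals and black ticks log2 ratios of RPKM + 1; genes with 0 reads on a side have no point and a bar that runs to the edge.

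Receptors and adaptors of the TLR pathway were mostly higher. Of 27 genes tested 15 were at least 2-fold higher and 2 lower, with a median log2 ratio of 1.13, and with the libraries rescaled 15 were higher and 0 lower. Tlr2, the receptor for bacterial lipoproteins, had 251 RPKM with KLA and 8.90 RPKM untreated, a ratio of 28.3 (21.7 to 37.6). Cd14, the co-receptor that hands lipid A to MD-2, had 364 RPKM and 56.0 RPKM, a ratio of 6.50 (5.61 to 7.56). Myd88, the adaptor of the surface arm, had 91.0 RPKM and 30.0 RPKM, a ratio of 3.03 (2.48 to 3.73). The receptor of KLA itself was on the lower side. Tlr4 had 12.8 RPKM with KLA, 26.4 RPKM untreated and 43.0 RPKM in the other untreated library, 2.07-fold lower (1.65 to 2.61), which falls just short of the threshold on the scale of RPKM + 1 but passes it against the other untreated library. Ly96, which encodes MD-2, had 36.7 RPKM and 49.0 RPKM, and Ticam1, which encodes TRIF, 20.5 RPKM in both. Those 2 partners of TLR4 lay between the thresholds. The 2 lower genes were Tlr13, the receptor for bacterial ribosomal RNA (31.2 RPKM with KLA and 76.7 RPKM untreated, 2.46-fold lower, 2.15 to 2.83), and the kinase Irak1 (12.2 RPKM and 26.9 RPKM). Traf1, an adaptor of TNF receptors, was highest in ratio in this list, with 98.1 RPKM and 2.15 RPKM.

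NF-kB subunits and feedback inhibitors were higher in 17 of 27 genes and lower in 0, with a median of 1.62. The cytokine-signalling inhibitor Socs3 had 122 RPKM with KLA and 3.50 RPKM untreated, a ratio of 34.8 (22.6 to 56.6), and Socs1 had 81.5 RPKM and 1.12 RPKM. Nfkbia had 337 RPKM and 26.4 RPKM, a ratio of 12.7 (10.3 to 15.9). Nfkb2, the subunit of the non-canonical arm, had 137 RPKM and 12.4 RPKM, a ratio of 11.1 (8.85 to 14.1). These inhibitors and the subunit were above the untreated level at 12 h, whereas some that peaked at 1 h were close to it. Dusp1, a phosphatase of MAP kinases, had 36.4 RPKM with KLA and 27.6 RPKM untreated, a ratio of 1.32 (1.04 to 1.68), after 1235 RPKM at 1 h. Zfp36, which destabilises cytokine mRNA, had 70.2 RPKM and 53.0 RPKM, after 813 RPKM at 1 h, and was at least 2-fold higher only against the other untreated library (32.9 RPKM). Nfkbiz, a nuclear co-regulator, was still higher at 12 h, with 21.7 RPKM and 2.20 RPKM, and had been at 538 RPKM at 1 h. The NF-kB letters were found in 5 of the 23 promoter windows of this list (21.7%) and the interferon letters in 4 (17.4%). Over all tested genes with a window the shares were 5.67% and 8.97%. With so few windows in the list this is a description only.

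Cytokines were higher in 21 of 27 genes tested and lower in 0, with a median of 3.31. Il1a, a partner of interleukin 1 beta at the same receptor, had 1771 RPKM with KLA and 21.6 RPKM untreated, a ratio of 82.0 (66.9 to 102). Il6, an inducer of acute-phase and lymphocyte responses, had 175 RPKM and 0.418 RPKM (1 read). Both subunits of interleukin 12, which directs T cells toward interferon gamma, had 0 reads untreated: Il12a reached 61.7 RPKM, at least 57.7-fold higher, and Il12b 30.8 RPKM, at least 44.2-fold higher. The inhibitory members of the family were present beside these. Il1rn, the antagonist of the interleukin 1 receptor, had 1669.7 RPKM and 176 RPKM, a ratio of 9.49 (8.88 to 10.1), while Il10 had 2 reads with KLA and 0 untreated. Il15, a growth signal for NK cells, had 90.1 RPKM and 7.83 RPKM, a ratio of 11.5 (7.45 to 18.7). Ifnb1, which encodes interferon beta, had 0 reads in both libraries and 30.3 RPKM at 1 h. Vegfa, an angiogenic factor, had 3.55 RPKM with KLA and 7.74 RPKM untreated, 2.18-fold lower (1.38 to 3.51), and passed the threshold only against the other untreated library (13.6 RPKM).

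Chemokines were higher in 18 of 24 genes and lower in 2, with a median of 4.25. Cxcl10, a ligand of CXCR3 on T and NK cells, had 1513 RPKM with KLA and 8.25 RPKM untreated, a ratio of 183 (119 to 300.4). Ccl2, which attracts monocytes, had 2642 RPKM and 44.5 RPKM, a ratio of 59.4 (47.5 to 75.1). Cxcl2, which attracts neutrophils, had 1017 RPKM and 13.0 RPKM, a ratio of 78.3 (55.0 to 115). Ligands for T cells, monocytes and neutrophils were thus all above the untreated level. The 2 lower members were Cxcl14, with 1.57 RPKM with KLA and 7.46 RPKM untreated, and Cxcl12, with 0.653 RPKM and 2.66 RPKM, both weakly expressed. Among chemotactic receptors 5 of 15 were higher and 3 lower, against 8.53% and 16.0% of all genes, with a median of 0.39. The formyl peptide receptors, which sense bacterial peptides, were the highest. Fpr2 had 216 RPKM with KLA and 0.350 RPKM (1 read) untreated. Fpr1 had 75.1 RPKM and 0 reads, at least 73.0-fold higher (interval from 58.9). Ccrl2, an atypical receptor that presents chemerin, had 836 RPKM and 127 RPKM, a ratio of 6.60 (6.06 to 7.21). Beside Cxcr4, the lower members were Ccr2, the receptor of CCL2, with 0.456 RPKM with KLA and 3.29 RPKM untreated (7.21-fold lower, 2.50 to 28.4), and C5ar2, with 0.238 RPKM and 2.12 RPKM. Ccl2 was thus higher while its receptor gene was lower, and Cxcl12 and its receptor gene were both lower.

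**Figure D4:**
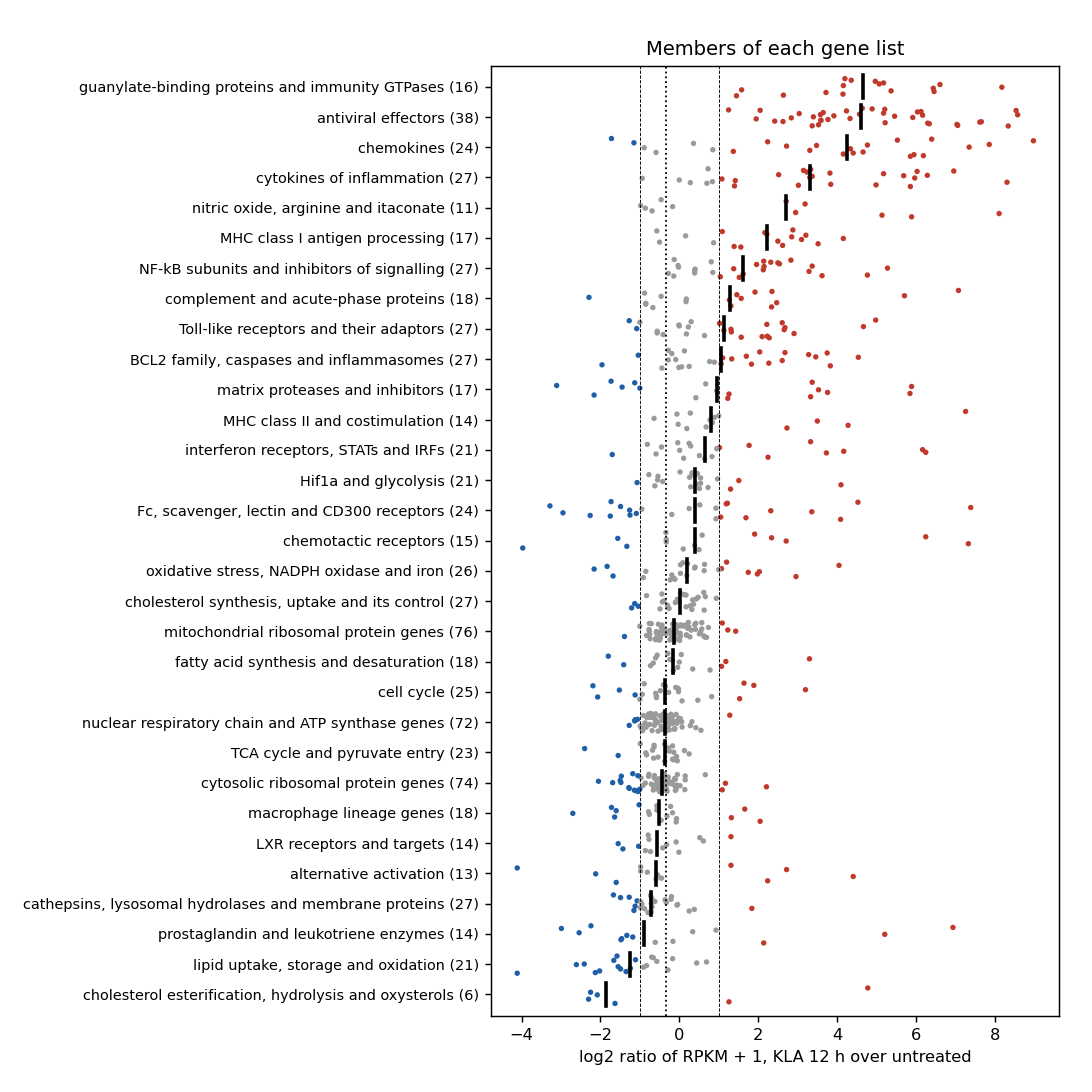
Log2 ratio of RPKM + 1 of KLA 12 h over untreated for every tested member of 31 gene lists, with the number tested in parentheses. Red points are at least 2-fold higher, blue points at least 2-fold lower, thick bars are list medians, the dotted line is the median of all genes (-0.33) and dashed lines mark 2-fold; lists run from 4.66 for the GTPases to -1.85 for sterol ester and oxysterol enzymes.

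Interferon signalling was higher in 8 of 21 genes and lower in 1, with a median of 0.64. Stat2, which carries the signal of the type I receptor to the nucleus, had 69.5 RPKM with KLA and 5.99 RPKM untreated, a ratio of 11.6 (8.88 to 15.4). Its DNA-binding partner Irf9 had 42.6 RPKM and 11.8 RPKM, a ratio of 3.60 (2.71 to 4.85). Both partners were therefore higher. Irf1, an activator of interferon-stimulated genes, had 399.8 RPKM and 21.2 RPKM, a ratio of 18.8 (15.4 to 23.3). Usp18, which blocks the type I receptor, had 347 RPKM and 3.59 RPKM, a ratio of 96.7 (57.5 to 177). Irf3, which acts first and is switched on as a protein, lay between the thresholds with 10.9 RPKM and 15.2 RPKM. The lower gene was Ifngr1, the ligand-binding chain of the interferon gamma receptor, with 15.2 RPKM with KLA and 51.4 RPKM untreated, 3.39-fold lower (2.61 to 4.43).

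All 38 antiviral effectors were at least 2-fold higher (median 4.60), as were all 16 tested guanylate-binding proteins and immunity-related GTPases (median 4.66). Rsad2, which encodes viperin, had 1827 RPKM with KLA and 12.7 RPKM untreated, a ratio of 144 (119 to 176). Eif2ak2, the kinase that halts translation on double-stranded RNA, had 25.6 RPKM and 3.98 RPKM, a ratio of 6.43 (4.56 to 9.28). Adar, which edits double-stranded RNA, had 37.3 RPKM and 8.24 RPKM, a ratio of 4.52 (3.67 to 5.63). Sensors and editors of double-stranded RNA had smaller ratios than Rsad2. The weakest call was that of Ifitm1, with 5 reads with KLA and 1 untreated, whose interval included 1. Gbp2, whose promoter is printed above, had 1578 RPKM and 15.2 RPKM, a ratio of 104 (83.8 to 131). Irgm1, a regulator of the GTPases that attack vacuoles, had 525 RPKM and 28.5 RPKM, a ratio of 18.4 (15.5 to 22.0). Close copies within these GTPase families can share reads, so the split between near-identical members is uncertain.

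MHC class I antigen processing was higher in 13 of 17 genes and lower in 0, with a median of 2.22. Tap1, a subunit of the peptide transporter, had 235 RPKM with KLA and 12.2 RPKM untreated, a ratio of 19.3 (15.3 to 24.6). Nlrc5, the transactivator of class I genes, had 23.3 RPKM and 1.63 RPKM, a ratio of 14.3 (9.53 to 22.3). The subunits that make up the immunoproteasome were higher together: Psmb10 had 519.7 RPKM and 44.3 RPKM, Psmb8 665 RPKM and 89.4 RPKM, and Psmb9 257 RPKM and 34.9 RPKM. The light chain B2m was already abundant, with 10733 RPKM and 5030.0 RPKM, a ratio of 2.13 (2.08 to 2.19), and fell short of the threshold against the other untreated library (5777 RPKM). Of the listed class I heavy chains, H2-K1 was higher, with 1670.1 RPKM with KLA and 566 RPKM untreated. H2-D1 (2073 and 1851 RPKM) and H2-T23 (423 and 231 RPKM) lay between the thresholds. H2-T23 passed against the other untreated library (137 RPKM) and H2-D1 did not (1207 RPKM). The general chaperones of the endoplasmic reticulum also lay between the thresholds: Calr had 315 RPKM and 448 RPKM, and Pdia3 121 RPKM and 179 RPKM. The interferon letters were found in 4 of 14 promoter windows of the list (28.6%) and the NF-kB letters in 1 (7.14%). The shares over all tested genes with a window were 8.97% and 5.67%, and 14 windows are too few for more than a description.

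For MHC class II and costimulation 4 of 14 genes were higher and 0 lower, with a median of 0.81, and 8 were higher with the libraries rescaled. The 4, Cd40, Cd86, Cd274 and Icosl, encode surface molecules that signal to or from T cells. Cd40 had 453 RPKM with KLA and 1.96 RPKM untreated, a ratio of 231 (112 to 576). Cd274, which encodes the inhibitory ligand PD-L1, had 483 RPKM and 41.9 RPKM, a ratio of 11.5 (10.3 to 12.9), and Cd86 had 77.6 RPKM and 3.04 RPKM. The class II chains and their invariant chain lay between the thresholds, with H2-Ab1 at 222 RPKM and 119 RPKM and Cd74 at 589 RPKM and 484 RPKM. Those 2 genes were lower in the other untreated library (73.3 and 258 RPKM), and 9 of the 14 passed the 2-fold threshold against it. Cd83, a stabiliser of class II and CD86 at the surface, had 61.1 RPKM and 63.8 RPKM after 754 RPKM at 1 h.

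Genes of nitric oxide, arginine and itaconate were higher in 6 of 11 and lower in 0, with a median of 2.71. Nos2, the inducible nitric oxide synthase, had 72.0 RPKM with KLA and 0.227 RPKM (2 reads) untreated. Slc7a2, which imports the arginine it uses, had 98.4 RPKM and 1.82 RPKM, a ratio of 54.0 (37.9 to 79.7), and Gch1, the first enzyme of its cofactor tetrahydrobiopterin, 135 RPKM and 14.0 RPKM, a ratio of 9.71 (7.77 to 12.3). Ass1, which regenerates arginine from citrulline, had 11.0 RPKM and 0.835 RPKM. Irg1, the itaconate enzyme, had 1828 RPKM and 5.61 RPKM, a ratio of 326 (231 to 477). The arginase Arg2 had 9.23 RPKM with KLA and 0.320 RPKM (1 read) untreated. The other tested enzymes of these routes were not higher. Pts and Spr, which complete the cofactor after Gch1, had 12.6 and 14.0 RPKM with KLA, against 21.0 and 19.6 RPKM untreated. Asl, the partner of Ass1, had 15.2 RPKM and 28.5 RPKM. Arg1, the other arginase, had 6.37 RPKM and 13.5 RPKM, 2.12-fold lower (1.25 to 3.68). It passed the threshold against neither untreated library (9.69 RPKM in the other one).

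Eicosanoid genes divided by branch: 3 of 14 were higher and 7 lower, with a median of -0.89. The inducible path to prostaglandin E2 was higher at each step. Pla2g4a, which frees arachidonic acid, had 23.1 RPKM with KLA and 4.46 RPKM untreated, a ratio of 5.18 (3.45 to 8.04). Ptgs2, the inducible cyclooxygenase, had 215 RPKM and 0.766 RPKM, a ratio of 281 (136 to 700.4). Ptges, the synthase of prostaglandin E2, had 58.8 RPKM and 0.622 RPKM, a ratio of 94.6 (40.3 to 293). Genes of the leukotriene arm and some other synthases were on the lower side. The synthases Ptges2 (10.1 RPKM with KLA and 11.4 RPKM untreated) and Ptges3 (29.3 and 14.9 RPKM) lay between the thresholds. Alox5, which encodes 5-lipoxygenase, had 1 read in each library. Alox5ap, which presents arachidonic acid to 5-lipoxygenase, had 24.0 RPKM with KLA and 144 RPKM untreated, 6.01-fold lower (4.43 to 8.30). Lta4h, the last enzyme of leukotriene B4, had 21.6 RPKM and 62.1 RPKM, 2.88-fold lower (2.30 to 3.63). Hpgds, the synthase of prostaglandin D2, had 8.06 RPKM and 41.8 RPKM, 5.19-fold lower (3.96 to 6.89), and the constitutive cyclooxygenase Ptgs1 3.57 RPKM and 11.6 RPKM. Against the other untreated library 5 of these 7 remained at least 2-fold lower. Ltc4s, the leukotriene C4 synthase, did not, since its call rests on 9 reads in the untreated library and it had 0 reads with KLA and 0 in the other untreated library.

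Complement and acute-phase genes were higher in 10 of 18 and lower in 1, with a median of 1.29. Cfb, factor B of the alternative pathway, had 625 RPKM with KLA and 3.63 RPKM untreated, a ratio of 172 (113 to 275), and C3 had 58.4 RPKM and 20.7 RPKM, a ratio of 2.83 (2.44 to 3.29), but 29.1 RPKM in the other untreated library, against which it fell just short of the threshold. Both parts of that pathway's convertase were thus above the untreated level. Lcn2, which withholds iron from bacteria, had 51.3 RPKM and 0 reads, at least 32.1-fold higher (interval from 25.7).

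Genes of cell death and inflammasomes were higher in 14 of 27 and lower in 2, with a median of 1.06. Nlrp3, the sensor of the canonical inflammasome, had 33.7 RPKM with KLA and 1.58 RPKM untreated, a ratio of 21.4 (12.6 to 39.5). Casp4, listed under this symbol and known in mouse as caspase-11, the receptor of cytosolic lipopolysaccharide, had 175 RPKM and 11.4 RPKM, a ratio of 15.3 (11.0 to 22.1). The shared effectors Casp1 (302 RPKM and 72.9 RPKM) and Gsdmd (105 RPKM and 28.9 RPKM), the pore protein, were 4.15-fold (3.61 to 4.78) and 3.65-fold (2.97 to 4.53) higher. Mlkl, which executes necroptosis, had 165 RPKM and 6.13 RPKM, a ratio of 26.8 (17.7 to 42.6). The 2 lower genes, Bcl2l11 and Bbc3, encode BIM and PUMA, which promote apoptosis. Bcl2l11 had 4.28 RPKM with KLA and 9.87 RPKM untreated, 2.31-fold lower (1.63 to 3.30).

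Matrix proteases and their inhibitors were higher in 8 of 17 and lower in 6, with a median of 0.95. Mmp14, a membrane-bound collagenase, had 220.1 RPKM with KLA and 21.0 RPKM untreated, a ratio of 10.5 (8.71 to 12.8), and Mmp13, a secreted one, 77.3 RPKM and 5.77 RPKM, a ratio of 13.4 (9.47 to 19.6). Mmp19 went the other way, with 5.99 RPKM and 59.4 RPKM, 9.92-fold lower (7.35 to 13.7). So did the macrophage elastase Mmp12, with 1427 RPKM and 3132 RPKM, 2.19-fold lower (2.15 to 2.24). Their inhibitors divided as well: Timp1 had 117 RPKM and 7.71 RPKM, a ratio of 15.2 (8.28 to 30.9), and Timp2 71.7 RPKM and 240.2 RPKM, 3.35-fold lower (3.06 to 3.67). Serpinb2, a plasminogen activator inhibitor, had 139.7 RPKM and 1.38 RPKM, a ratio of 101 (46.3 to 277).

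Genes that take up, store and oxidise fatty acids were lower in 12 of 21 and higher in 0, with a median of -1.24, and 10 of the 12 were lower than both untreated libraries. Fabp4, a fatty acid carrier, had 136 RPKM with KLA and 834 RPKM untreated, 6.13-fold lower (5.30 to 7.13). Cd36, the fatty acid and oxidised lipoprotein receptor, had 476 RPKM and 1337 RPKM, 2.81-fold lower (2.70 to 2.91). Plin2, the coat protein of lipid droplets, had 256 RPKM and 810.3 RPKM, 3.17-fold lower (2.97 to 3.39). Uptake, transport and storage were thus on the lower side, and so were enzymes of mitochondrial oxidation. Acadm, the medium-chain acyl-CoA dehydrogenase, had 4.16 RPKM and 21.6 RPKM, 5.18-fold lower (3.21 to 8.74), and Acaa2, the thiolase, 7.91 RPKM and 35.1 RPKM, 4.44-fold lower (2.93 to 6.92). Cpt1a, which admits fatty acids to mitochondria, differed little, with 17.4 RPKM and 19.7 RPKM.

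All 6 genes of cholesterol ester and oxysterol handling passed the threshold, 4 lower and 2 higher, in both cases also against the other untreated library. Soat1, which esterifies cholesterol, had 60.6 RPKM with KLA and 189.8 RPKM untreated, 3.13-fold lower (2.87 to 3.42). Both hydrolases that free it were lower too. Lipa, the lysosomal acid lipase, had 246 RPKM and 1171 RPKM, 4.76-fold lower (4.52 to 5.02), and Nceh1, the cytosolic hydrolase, 31.3 RPKM and 158 RPKM, 5.06-fold lower (4.50 to 5.71). The oxysterol enzymes parted. Ch25h, which makes the antiviral 25-hydroxycholesterol, had 45.1 RPKM with KLA and 0.671 RPKM (2 reads) untreated, while Cyp27a1, which makes 27-hydroxycholesterol, had 1.51 RPKM and 9.60 RPKM, 6.34-fold lower (2.81 to 16.8). Cholesterol synthesis and uptake had 3 of 27 genes lower and 0 higher, against 16.0% and 8.53% of all genes, with a median of 0.03. The 3 lower genes were Dhcr7, Npc1 and Scap. With the libraries rescaled 0 of the list were lower and 1 higher. Of the 3, Scap fell short of the threshold against the other untreated library (3.85 RPKM with KLA and 8.31 RPKM there). Fatty acid synthesis had 3 of 18 higher and 2 lower, against 8.53% and 16.0% of all genes, with a median of -0.16. Its highest member was Acsl1, which activates long-chain fatty acids, with 96.3 RPKM and 8.86 RPKM, a ratio of 10.9 (8.60 to 13.9).

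Of 14 tested LXR receptor and target genes 1 was higher and 3 lower, with a median of -0.57. Over all genes the shares were 8.53% and 16.0%. Against both untreated libraries 0 of the list were higher and 1 lower. The one that passed against both was Abcg1, a cholesterol exporter, with 15.2 RPKM with KLA, 46.5 RPKM untreated and 52.5 RPKM in the other untreated library, 3.05-fold (2.61 to 3.58) and 3.44-fold (2.96 to 4.02) lower. Abca1, the exporter to lipid-poor apolipoproteins, was the higher one, with 15.9, 5.79 and 12.9 RPKM in the same libraries. Apoe, the apolipoprotein of cholesterol efflux, lay between the thresholds, with 3173 RPKM with KLA, 5741 RPKM untreated and 2826 RPKM in the other untreated library. Cd5l, a macrophage-secreted lipid regulator, had 27.9, 77.1 and 17.8 RPKM in the same libraries, and Pltp, the phospholipid transfer protein, 112, 230.4 and 108 RPKM. The KLA value lay between the 2 untreated values for Apoe, Cd5l and Pltp.

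Of 21 glycolysis genes 3 were higher and 1 lower, with a median of 0.39, against -0.33 for all genes. With the libraries rescaled 5 were higher and 0 lower. Slc2a6, a hexose transporter, had 307 RPKM with KLA and 17.0 RPKM untreated, a ratio of 18.0 (14.3 to 23.1), and Hk2, the inducible hexokinase, 22.7 RPKM and 7.32 RPKM, a ratio of 3.10 (2.44 to 3.97). Hif1a, the factor that drives glycolysis in activated macrophages, had 61.4 RPKM and 24.3 RPKM, but 47.2 RPKM in the other untreated library, against which it fell short. In the TCA cycle 2 of 23 genes were lower and 0 higher, and both were isocitrate dehydrogenases. Idh1 had 28.9 RPKM with KLA and 156 RPKM untreated, 5.41-fold lower (4.56 to 6.45), and Idh2 6.97 RPKM and 22.4 RPKM, 3.21-fold lower (2.09 to 5.09). The remaining TCA genes had ratios near the median of all genes, which gave a list median of -0.37. Nuclear respiratory chain genes (1 of 72 higher, 4 lower, median -0.36), cytosolic ribosomal proteins (3 of 74 higher, 13 lower, median -0.43) and mitochondrial ribosomal proteins (3 of 76 higher, 1 lower, median -0.14) had more members between the thresholds than beyond them. The 13 lower cytosolic ribosomal genes are near the share of all genes (16.0%), and the 3 higher ones rest on 6, 2 and 1 reads with KLA and 0 untreated. With the libraries rescaled 0 respiratory chain and 5 cytosolic ribosomal genes were lower. Against the other untreated library the medians of the 3 lists were 0.00, 0.04 and 0.16, where that of all genes was -0.35. Ribosomal protein genes have many processed copies, so their reads are uncertain.

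The macrophage lineage list had 3 of 18 genes higher and 5 lower, against 8.53% and 16.0% of all genes, with a median of -0.52. Gata6, the factor of resident peritoneal macrophages, was weakly expressed, with 0.640 RPKM with KLA and 4.12 RPKM untreated. The 2 C/EBP factors of myeloid cells parted, with Cebpa at 25.3 RPKM and 78.6 RPKM, 3.11-fold lower (2.60 to 3.74), and Cebpb at 478 RPKM and 191 RPKM, 2.50-fold higher (2.29 to 2.74). Spi1, which encodes PU.1, had 269 RPKM and 284 RPKM. Emr1, which encodes the marker F4/80, had 247 RPKM with KLA and 77.6 RPKM untreated, a ratio of 3.19 (2.90 to 3.51). Trem2, a lipid-sensing receptor, had 335 RPKM and 1106 RPKM, 3.30-fold lower (3.06 to 3.57), and fell short of the threshold against the other untreated library (623 RPKM). In bulk RNA fewer cells of a type and less RNA per cell cannot be told apart. Of 13 genes of alternative activation 4 were higher and 3 lower, against 8.53% and 16.0% of all genes, with a median of -0.59. Mrc1, the mannose receptor, was among the lower ones, with 11.4 RPKM and 36.6 RPKM, 3.22-fold lower (2.66 to 3.90), while Il4ra, the interleukin 4 receptor chain, was among the higher ones, with 20.1 RPKM and 7.48 RPKM, a ratio of 2.68 (2.09 to 3.48).

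Receptors for uptake divided: 9 of 24 were higher and 9 lower, with a median of 0.39. Fcgr1, the high-affinity IgG receptor, had 234 RPKM with KLA and 12.8 RPKM untreated, a ratio of 18.3 (14.4 to 23.4), whereas the low-affinity Fcgr3 had 213 RPKM and 508 RPKM, 2.39-fold lower (2.18 to 2.62). Fcgr3 fell short of the threshold against the other untreated library (384 RPKM). Msr1, a class A scavenger receptor, had 208 RPKM and 40.8 RPKM, a ratio of 5.10 (4.23 to 6.18), while the class B receptor Cd36 was lower, as above. Axl, a receptor for apoptotic cells, had 116 RPKM and 10.4 RPKM, a ratio of 11.2 (9.21 to 13.7), and Lrp1, another, 12.7 RPKM and 44.8 RPKM, 3.54-fold lower (3.19 to 3.94). Clec7a, the beta-glucan receptor dectin-1, had 306 RPKM and 736 RPKM, 2.40-fold lower (2.27 to 2.55). Opposite directions thus occurred within the Fc, scavenger, lectin and apoptotic-cell receptors. The CD300 family was on the lower side: the inhibitory Cd300a had 6.96 RPKM with KLA and 76.3 RPKM untreated, 11.0-fold lower (8.70 to 14.0), and the activating Cd300lb 20.0 RPKM and 161 RPKM, 8.06-fold lower (6.75 to 9.68).

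Of 27 lysosomal genes 1 was higher and 6 lower, against 8.53% and 16.0% of all genes, with a median of -0.71. With the libraries rescaled 2 of the list were lower. Atp6v0d2, a subunit of the proton pump, had 273 RPKM with KLA and 873 RPKM untreated, 3.19-fold lower (3.02 to 3.38). Ctsd, the aspartic cathepsin, had 4822 RPKM and 11594 RPKM, 2.40-fold lower (2.37 to 2.44), and Tfeb, the factor that drives lysosomal genes, 11.0 RPKM and 32.9 RPKM. Ctsd and Tfeb fell short of the threshold against the other untreated library, with 8180.4 and 18.6 RPKM there. Ctsc, which activates serine proteases, was the higher member, with 257 RPKM and 71.2 RPKM, a ratio of 3.61 (3.23 to 4.05). In the redox and iron list 7 of 26 genes were higher and 3 lower, against 8.53% and 16.0% of all genes, with a median of 0.20. Sod2, the mitochondrial superoxide dismutase, had 389 RPKM and 22.5 RPKM, a ratio of 17.2 (14.9 to 20.1), and Prdx5, a peroxiredoxin, 1655 RPKM and 213 RPKM, a ratio of 7.79 (6.94 to 8.77). Hmox1, which degrades heme, had 546 RPKM and 259 RPKM, a ratio of 2.10 (1.94 to 2.28). Genes of iron storage, import and export differed among themselves. Fth1, the ferritin heavy chain and the most abundant RNA with KLA, had 30033 RPKM and 19448 RPKM, a ratio of 1.54 (1.53 to 1.56), below the 2-fold threshold. Tfrc, the transferrin receptor, had 23.4 RPKM and 108 RPKM, 4.63-fold lower (4.06 to 5.30), and Slc40a1, the iron exporter ferroportin, 0 reads and 2.55 RPKM, at least 7.03-fold lower.

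The cell cycle list had 4 of 25 genes higher and 4 lower, with a median of -0.35. Over all genes 8.53% were higher and 16.0% lower, with a median of -0.33, so the lower count and the median are near those of all genes. Inhibitors of cyclin-dependent kinases were on both sides. Cdkn1a had 156 RPKM with KLA and 49.4 RPKM untreated, a ratio of 3.16 (2.71 to 3.71), and Cdkn1c 69.8 RPKM and 297 RPKM, 4.26-fold lower (3.77 to 4.83). Ccnd2, a D-type cyclin, had 14.7 RPKM and 0.707 RPKM, a ratio of 20.7 (10.7 to 46.0).

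Set among the other times, the 12 h values of genes of one pathway did not share one course. Il1b had 6.84 RPKM untreated and 2095, 4048, 2485 and 801 RPKM at 1, 6, 12 and 24 h, so 12 h was past its highest value. Cxcl10 was also highest at 6 h, with 8.25 RPKM untreated and 241, 3643, 1513 and 1213 RPKM. Cfb was not, with 3.63 RPKM untreated and 2.73, 178, 625 and 1265 RPKM. Il1b and Cxcl10 were thus highest at 6 h and Cfb at 24 h. B2m likewise had 5030.0 RPKM untreated and 4663, 7182, 10733 and 16995 RPKM, and Nos2 0.227 RPKM untreated and 0, 63.5, 72.0 and 146 RPKM. Fcgr1 was highest at 12 h, with 12.8 RPKM untreated and 10.5, 101, 234 and 127 RPKM. Lipa had 1171 RPKM untreated and 1002, 323, 246 and 168 RPKM, while Cebpa had 78.6 RPKM untreated and 27.5, 7.36, 25.3 and 26.7 RPKM. Lipa was lowest at 24 h and Cebpa at 6 h.

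**Figure D5:**
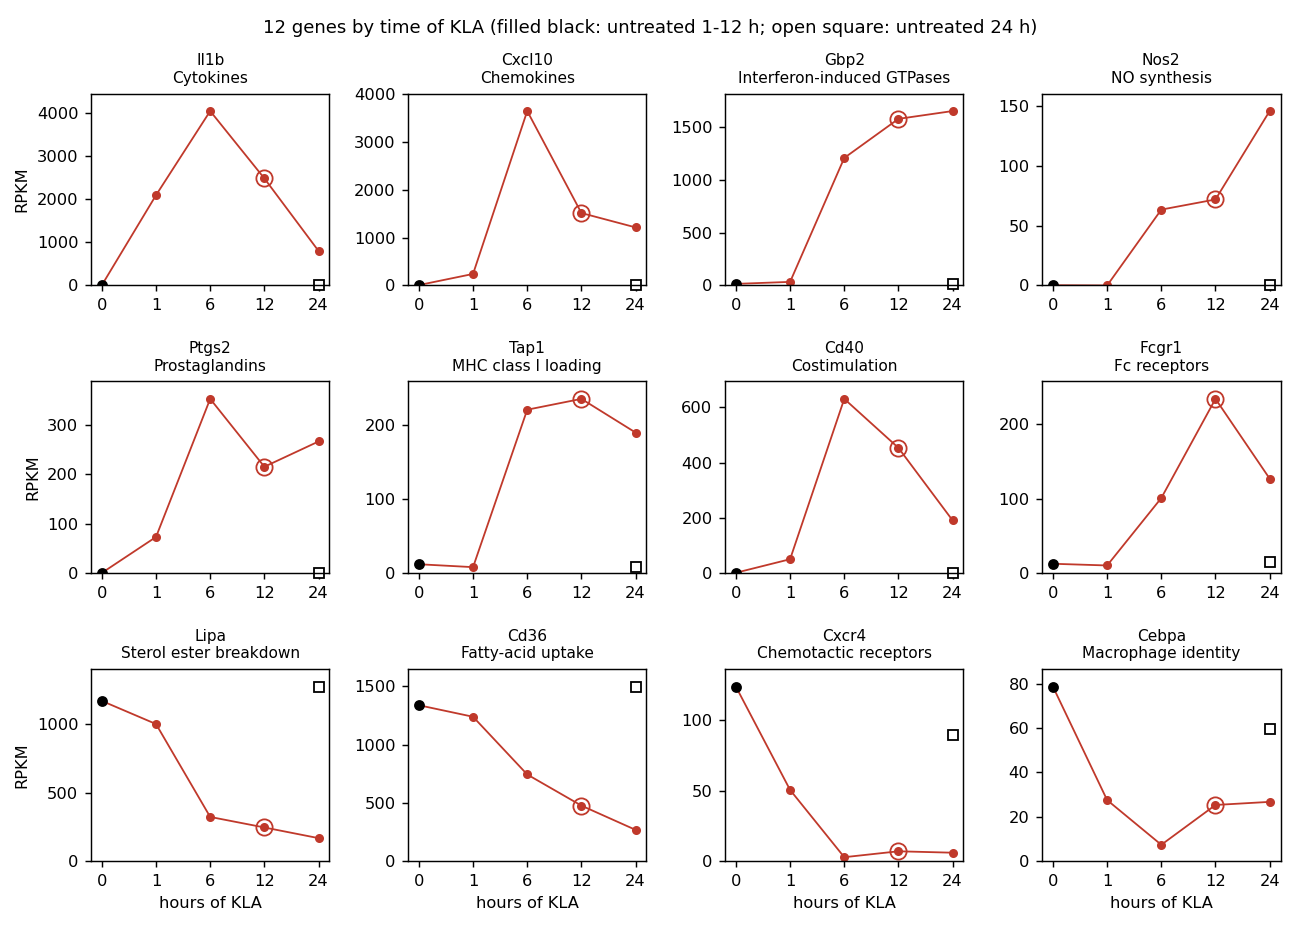
RPKM of 12 genes in untreated cells (black point at 0 h) and after 1, 6, 12 and 24 h of KLA (red points, evenly spaced, with 12 h ringed), 1 library a point; the open square at 24 h is the untreated 24 h library. Il1b and Cxcl10 peak at 6 h, Fcgr1 at 12 h, and Lipa and Cd36 are lowest at 24 h.

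Few genes had their extreme value at 12 h by a margin of at least 2-fold. Only 4 of 10383 were at least 2-fold higher at 12 h than in every one of the other 5 libraries with an interval that excluded 1, and 8 were at least 2-fold lower. The higher ones were H2-Bl, Limd2, Flt3l and Hspa1b. H2-Bl, an MHC class I gene of the H2 region, had 14.4 RPKM at 12 h and 6.16 RPKM in the nearest library, KLA 6 h, a ratio of 2.34 (1.30 to 4.39), and its reads may be shared with similar class I genes. Flt3l, the growth factor of dendritic cells, had 8.26 RPKM and 3.40 RPKM at 24 h, a ratio of 2.43 (1.06 to 6.06). These margins rest on 41 and 20 reads at 12 h. The lower ones included Hrsp12, Adk, Hadhb, Mettl4, Abcc3, Snx13 and Mbnl1. Hadhb and Mettl4 had 1 read each at 12 h and 8 in the nearest library, and Hrsp12 had 2 and 13, so these margins are weak. Mbnl1, a splicing regulator, had 14.8 RPKM at 12 h and 30.9 RPKM in the nearest library, KLA 24 h, 2.09-fold lower (1.73 to 2.53), with 93.5 RPKM untreated. Snx13, a sorting nexin, had 3.81 RPKM and 9.07 RPKM, 2.38-fold lower (1.75 to 3.28).

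Summed over each list, markers of other peritoneal cells were low beside those of macrophages. Over 12 listed neutrophil markers, 11 of them in the table, 5 passed the filter, 2 higher and 2 lower, with a summed level of 117 RPKM with KLA and 74.1 RPKM untreated; S100a8 had 75.2 and 38.3 RPKM and Mpo 0 in both. B cell markers (5 of 7 tested, 0 higher, 2 lower) summed to 6.31 and 15.5 RPKM, T and NK cell markers (1 of 11 tested, higher) to 5.36 and 1.13 RPKM. Dendritic cell markers (2 of 7 tested, 1 higher, 0 lower) summed to 84.5 and 133 RPKM, most of it Itgax, which macrophages also express (77.6 and 132 RPKM, and 181 RPKM in the other untreated library, against which it was at least 2-fold lower), and Flt3, Xcr1 and Siglech were at 0 in both libraries. Fibroblast and mesothelial markers (10 of 10 tested, 0 higher, 2 lower) had a median of -0.33 and sums of 104 and 130.3 RPKM. Most of these sums was Dcn (52.2 and 58.9 RPKM) and Col1a2 (19.5 and 23.8 RPKM). Mast cell markers (0 of 7 tested) summed to 0.361 and 0.593 RPKM, eosinophil markers (1 of 5 tested, lower) to 1.77 and 5.77 RPKM with Epx and Prg2 at 0 in all 6 libraries, and the 5 red cell markers were at 0 throughout. The part of these cells in the results was not tested. All these sums lay below that of the 8 macrophage markers, 8534 RPKM with KLA and 12329 RPKM untreated. Most of the macrophage sum was Lyz2 (5167 and 8848 RPKM), and 2 of the 8 markers were higher and 1 lower.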

How the data were processed

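Expression values are RPKM, deposited by the authors in 1 table of 6 poly(A) RNA libraries on build mm9. The submitters' processing notes name Bowtie 0.12.7, STAR and HOMER but no role for each. No source used here gives the strand setting of the counting, and antisense partners, overlapping genes and close copies are uncertain.

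Reads were recovered as RPKM × length × library total, and 99.97% of the values in each compared library were whole within 0.01 read. The log2 ratio of RPKM + 1 was taken over 10383 genes with RPKM of at least 1 in 2 of 6 columns and transcripts of at least 200 bases. A gene silent elsewhere passes this filter through the libraries where it is high. A gene was counted at a 2-fold difference, with 1 library a side and no test. Ratios against 0 reads use a floor of 3 reads per library and are bounds that leave out counting error in the other library. The text names the 15 highest and 15 lowest genes with at least 10 reads over both libraries, genes with an extreme at 12 h, and list members. The members and the 40 gene lists (31 pathways, 9 cell types; 890 genes, 1 further symbol missing from the table) were chosen with earlier results of these data known, and genes within lists were picked by role and value. Promoters come from RefSeq (GRCm38.p6) and matched 80.5% of genes by symbol. Analyses used Python 3.11.15, numpy 2.4.6, pandas 2.3.3, scipy 1.17.1 and matplotlib 3.10.9, and read recovery and calls were tested on simulated data. The alternatives were the pseudocount, the filter, rescaling, the other untreated library, the longest transcript and a counting interval. A replicate could not be left out. Some genes of the lists are not reported here.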

Additional observations from a re-analysis of the deposited data

Results flagged for a closer look

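Some listed genes stood at least 2-fold on opposite sides of the same untreated library at 12 h and at 1 h of KLA. The difference between the times was not tested, since each time has 1 library. Bcl2l11, which encodes the apoptosis promoter BIM, had a log2 ratio of -1.04 at 12 h and 2.80 at 1 h, with 9.87 RPKM untreated and 74.6, 6.00, 4.28 and 5.71 RPKM at 1, 6, 12 and 24 h. Fabp4, the fatty acid carrier, had -2.61 at 12 h and 1.15 at 1 h, with 834 RPKM untreated and 1846, 103, 136 and 74.2 RPKM. Both were above the untreated level at 1 h and below it from 6 h on. Isg20, an antiviral RNA exonuclease, had 5.92 at 12 h and -1.54 at 1 h, with 4.66 RPKM (9 reads) untreated and 0.952, 182, 343 and 202 RPKM. The other untreated library had 2.21 RPKM (5 reads) of Isg20. Against it the 1 h value fell short of 2-fold on the scale of RPKM + 1. Serping1, the C1 inhibitor, had 1.27 at 12 h and -1.18 at 1 h, with 6.48 RPKM untreated and 2.29, 9.96, 17.1 and 28.2 RPKM. These were below the untreated level at 1 h and above it from 6 h on.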

How the results depend on the processing

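With 1 library a side, animal, culture and library differences cannot be told apart from KLA, and at library totals of 2447142 and 2205187 reads weakly expressed genes rest on few reads. The number of higher genes ranged from 697 (pseudocount of 3) to 1205 (libraries rescaled), within 1.5 times of 886. The 1665 lower genes became 864 with a pseudocount of 3 and 890 with the libraries rescaled. They became 2466 with a pseudocount of 0.1 and 2089 against the other untreated library. The 1247 genes lower than both untreated libraries became 663 with rescaling. Over all alternatives, 17 of 20 gene counts, 440 of 496 list counts, 208 of 217 list medians and 121 of 195 values of named genes stayed within their limits, and 0 reversed. Rescaling left 2 of the 6 lower lysosomal genes and 10 of the 12 lower genes of lipid uptake, storage and oxidation. No paired analysis was possible because each group has 1 library.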

Other observations

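The following genes were chosen after their values were seen, as genes outside the lists that stood at least 2-fold on opposite sides of the untreated library at 12 h and at 1 h. Egr1, an immediate early transcription factor, had 3.84 RPKM untreated and 216, 4.25, 0.665 and 2.68 RPKM at 1, 6, 12 and 24 h. The untreated 24 h library had 1.26 RPKM. Fos, a subunit of AP-1, had 13.7 RPKM untreated and 73.9, 4.43, 4.49 and 4.65 RPKM, with 10.9 RPKM in the untreated 24 h library. Both immediate early genes were below the first untreated library at 12 h. Kctd12 had 20.1 RPKM untreated and 76.3, 7.10, 4.52 and 16.2 RPKM, and Rhob, a small GTPase, 123 RPKM untreated and 281, 91.1, 56.4 and 43.3 RPKM. At 1 h Kctd12 fell short of the threshold against the untreated 24 h library (41.8 RPKM). Themis2, a signalling adaptor, ran the other way, with 15.5 RPKM untreated and 5.58, 85.6, 53.7 and 35.8 RPKM, as did Rassf1, with 19.7 RPKM untreated and 7.23, 38.7, 46.1 and 28.3 RPKM. The remaining genes of this kind were Cited2, Sgms1 and F630028O10Rik. Cited2 and F630028O10Rik also fell short at 1 h against the untreated 24 h library (41.0 and 2.78 RPKM). With the libraries rescaled, Rhob, Cited2, Sgms1 and F630028O10Rik were no longer at least 2-fold lower at 12 h.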
